A study of Mus musculus with 2 samples.

Results

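The genes described here are 9 transcription factors that set myeloid fate: Spi1 (PU.1), 4 genes of the C/EBP family (Cebpa, Cebpb, Cebpd and Cebpe), Gfi1, Irf4, Irf8 and Klf4. They were chosen by name from 32285 genes counted by single-cell 3′ sequencing of mouse spleen cells, and all 9 were detected. The cells had been viably frozen and were then sorted by flow cytometry as CD45.2+CD11b+ with the dye DAPI. There was 1 library of low-B12 treatment and 1 of high-B12 treatment. The labels give no genotype, age, dose or number of mice for either, and the series title alone places the study in Tet2-deficient blood formation. With 1 library per condition no test was possible: treatment and library cannot be told apart, and every difference below describes this pair of libraries. Molecule counts (UMIs) were summed over cells and scaled to a common total as CPM, and pairs of values have the low-B12 library first. Counting error alone is covered by the intervals, all at 95%.

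PU.1, an ETS factor, acts early in blood formation and at high levels drives myeloid fates. C/EBPα starts the granulocyte and monocyte programme, C/EBPε runs the step at which neutrophil precursors fill their secondary granules, and C/EBPβ and C/EBPδ act in later and in activated cells. GFI1 is a repressor that favours neutrophils, while IRF8 favours monocytes and the cross-presenting dendritic cells (DCs), IRF4 other DCs and activated B cells, and KLF4 monocytes.

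Each gene was read in 7 classes of cells, set by marker genes that are not among the 9 and given to a cell by the first rule it met. Of 6510 low-B12 and 6748 high-B12 cells, neutrophil progenitors (at least 10 UMIs of Elane, Mpo and Prtn3) made up 19 and 35. Neutrophils had at least 5% of their UMIs from S100a8 and S100a9. They were split at 1% of UMIs from the secondary granule genes Camp, Ngp and Ltf into 253 and 723 immature and 677 and 1928 mature cells. There were 1262 and 836 monocytes, 478 and 402 conventional dendritic cells (cDCs), 946 and 844 NK cells and 1852 and 673 B cells, while 1023 and 1307 cells met no rule. Median depth was 5695 and 4327 UMIs per cell, and 11808 and 11791 UMIs in immature but 2709 and 3084.5 UMIs in mature neutrophils. At least 6 of 7 marker genes reached 50 CPM in cDCs, 7 of 8 in monocytes, and all of their list in the neutrophil, progenitor, NK and B classes. The sorted fraction thus held B and NK cells with their defining genes.

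Some cells met the rules of several classes, 524 low-B12 and 408 high-B12 cells in all. They were 20.6% of low-B12 but 7.61% of high-B12 immature neutrophils, and 16 of 19 and 28 of 35 progenitors. No monocyte could be among them, since the monocyte rule came last. Progenitors had a median of 16.5% and 16.35% of UMIs from S100a8 and S100a9, so most of them also met the neutrophil rule. Progenitors that met no other rule thus had a smaller share of S100a8 and S100a9 than the neutrophil rule asks for. S100a8 and S100a9, which B cells lack, gave a UMI in 52.7% and 95.4% of B cells. The parts of free RNA and of doublets in this were not tested. Of 5 basophil and mast cell markers all were at 0 in low-B12 progenitors, but the list summed to 866 CPM in high-B12 progenitors. Low-B12 progenitors in turn carried the B cell factor Ebf1 at 129 CPM, against 5.34 CPM. The libraries shared 4 cell barcodes.

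Spi1 RNA, on chromosome 2 (91082390 to 91115756 in GRCm38), was highest in mature neutrophils. It stood there at 966 CPM (Poisson interval 925 to 1008) and 961 CPM (938 to 985). Monocytes followed at 624 and 641 CPM, then cDCs at 473 and 513 CPM. Progenitors (377 and 394 CPM) and immature neutrophils (353 and 388 CPM) had overlapping values. B cells were at 141.5 and 141.4 CPM and NK cells lowest, at 71.0 and 54.6 CPM. In cells that met 1 class rule, B cells were at 93.4 and 102 CPM and NK cells at 21.6 and 37.4 CPM. With cells called as doublets left out, B cells were at 81.3 and 95.5 CPM and NK cells at 8.8 and 11.2 CPM. The order of the classes was thus the same in both libraries from mature neutrophils to cDCs and from B to NK cells.

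Cebpb and Cebpd shared that leading class. Cebpb (chromosome 2, 167688915 to 167690418) was at 1558 and 1372 CPM in mature neutrophils and at 1232 and 1066 CPM in monocytes. It was several times lower in progenitors (488 and 462 CPM), immature neutrophils (342 and 243 CPM) and cDCs (239 and 167 CPM), and at 192 CPM or less in NK and B cells. In cells that met 1 rule, Cebpb was lower in cDCs (86.1 and 89.1 CPM), NK cells (131 and 158 CPM) and B cells (93.3 and 109 CPM). It was also lower in such immature neutrophils (271 and 222 CPM), but higher in the 3 and 7 such progenitors (1106 and 888.5 CPM). These few progenitors exclude all that also met the neutrophil rule, so they are a selected part of the class. Cebpd (chromosome 16, 15887286 to 15891031) was highest in the granulocyte classes. It stood at 603 and 606 CPM in mature and 274 and 286 CPM in immature neutrophils, at 114 and 136 CPM in monocytes, at 61.9 and 79.7 CPM in cDCs and at 21.4 CPM in B cells of both libraries. Of Cebpd UMIs in cells, monocytes gave 24.0% and 10.2%. For Spi1, Cebpb, Cebpd, Cebpe, Irf4 and Klf4 both values of the leading class lay above both values of every other class. Within a library the counting intervals were apart as well, except for Cebpe in low-B12 progenitors (275 to 375 CPM) and immature neutrophils (330 to 369 CPM). For Cebpa, Gfi1 and Irf8 the pairs of values of the leading class and another class overlapped, for Cebpa only across the libraries.

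**Figure D1:**
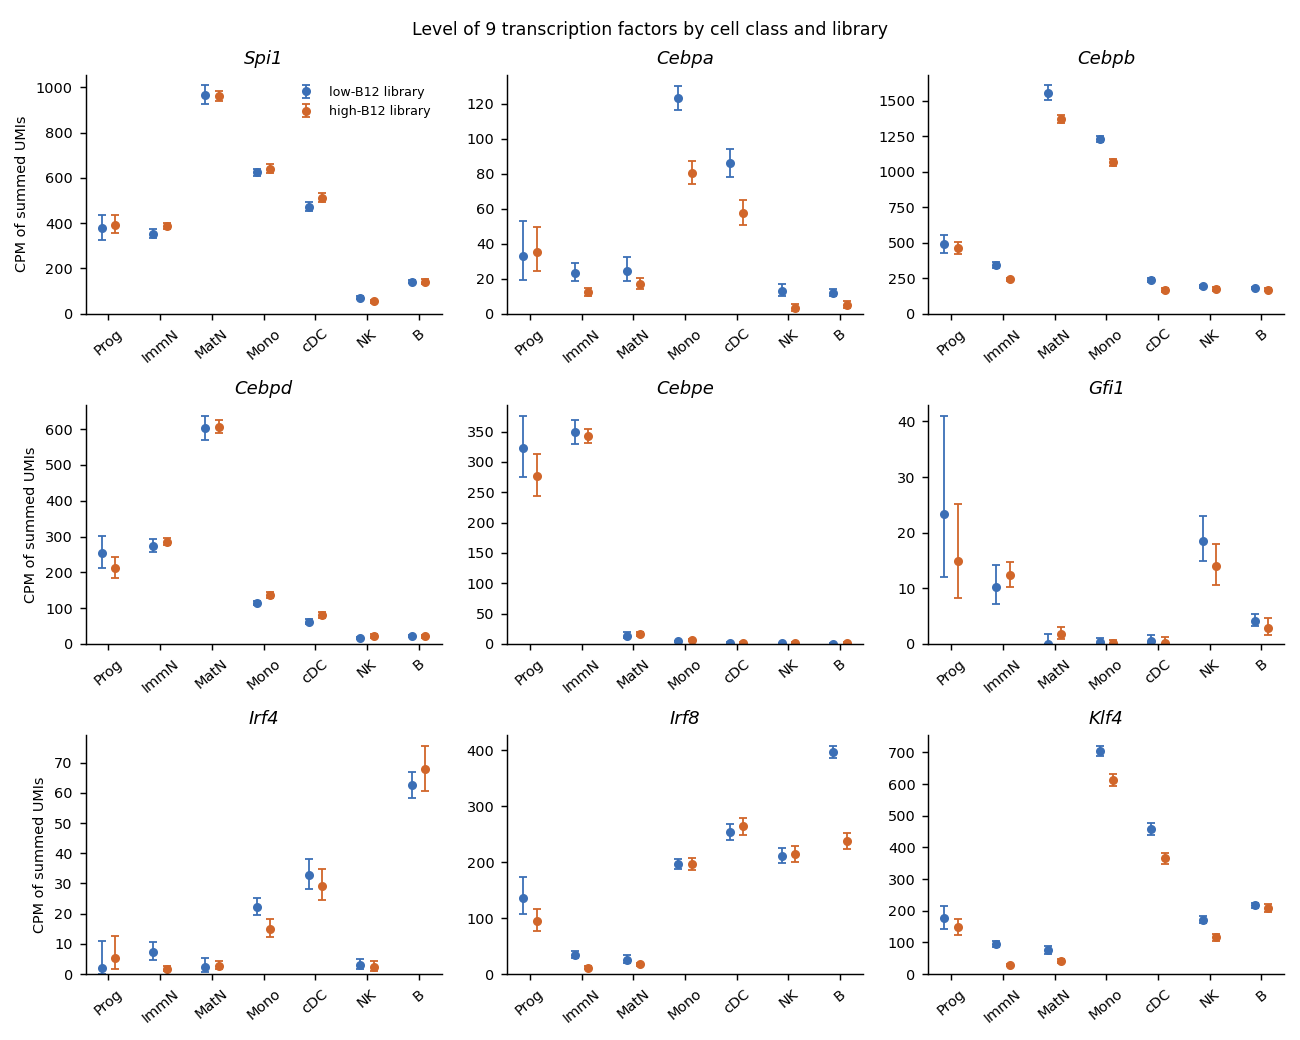
CPM of the 9 factors (vertical axes, linear from 0) in the 7 cell classes of the low-B12 and high-B12 library, 1 panel per gene, with exact Poisson 95% intervals for counting error. Spi1, Cebpb and Cebpd peak in mature neutrophils, Cebpe in immature neutrophils (349 and 343 CPM), Klf4 in monocytes (704 and 613 CPM) and Irf4 in B cells (62.6 and 67.8 CPM).

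Cebpe was the most restricted of the 9. Cebpe (chromosome 14, 54710360 to 54712174, minus strand) was at 349 CPM (330 to 369) and 343 CPM (331 to 355) in immature neutrophils and at 322 and 277 CPM in progenitors. Mature neutrophils had 13.5 and 16.1 CPM, monocytes 4.04 and 6.35 CPM, and cDC, NK and B cells 1.53 CPM or less. Of all Cebpe UMIs in cells, 82.4% and 87.0% came from immature neutrophils. In cells thinned to 1000 UMIs, 27.5% and 28.5% of immature neutrophils had a Cebpe UMI (86.2% and 82.7% unthinned), against 0 of 942 and 2 of 831 NK cells.

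Gfi1 (chromosome 5, 107716657 to 107726036, minus strand) was low in every class. It was at 23.4 CPM (12.1 to 41.0) and 15.0 CPM (8.17 to 25.1) in progenitors, on 12 and 14 UMIs, and at 18.6 and 14.0 CPM in NK cells. Immature neutrophils had 10.2 and 12.3 CPM. Mature neutrophils had no Gfi1 UMI in the low-B12 library, where 3 counts would be 1.40 CPM, and 1.75 CPM in the high-B12 library. Gfi1 and Irf8 were also counted in the same cells. Among progenitors, 7 of 19 and 6 of 35 cells had a Gfi1 UMI, 11 and 16 an Irf8 UMI, and 1 cell in each library both. Among immature neutrophils 29 of 253 and 87 of 723 had Gfi1, 41 and 41 had Irf8, and 7 and 5 had both. Cells that met 1 class rule held only 6 of 120 and 11 of 108 Irf8 UMIs of immature neutrophils. These counts were not set against the overlap that independent detection would give, so they do not show whether the genes exclude each other.

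Neutrophils ordered by granule RNA showed the C/EBP genes in opposite gradients. Cells were placed in 4 bins by the share of UMIs from Camp, Ngp and Ltf: under 0.1%, 0.1 to 1%, 1 to 3% and at least 3%. The bins held 664, 13, 21 and 232 low-B12 and 1826, 102, 76 and 647 high-B12 cells. From the least to the most granule RNA, Cebpe in low-B12 cells was at 11.8, 41.6, 122 and 369 CPM. In high-B12 cells it was at 14.1, 38.1, 83.8 and 360 CPM. The outer bins thus differed 31.2-fold (20.9 to 48.9) and 25.5-fold (20.6 to 31.8).

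Cebpb ran the other way, at 1594, 941, 596 and 319 CPM in low-B12 cells and at 1419.5, 830, 422 and 230 CPM in high-B12 cells. Its outer bins differed 4.99-fold (4.65 to 5.36) and 6.16-fold (5.87 to 6.47). Spi1 was 2.87-fold and 2.62-fold lower in cells with most granule RNA, at 344 and 376 CPM against 987 and 986 CPM. Cebpd was 2.22-fold and 2.24-fold lower there, with its lowest low-B12 value in the bin from 1 to 3% (185 CPM). These 4 genes were past 1.5-fold in the same direction in both libraries. The share of all genes past 1.5-fold between these bins was not counted, so the count does not set these factors apart from other genes. Gfi1 was at 10.5 and 12.7 CPM in the bin of most granule RNA and had no UMI and 1.59 CPM in the bin of least. Cebpa was at 23.6 and 22.5 CPM in the outer low-B12 bins and at 16.5 and 11.2 CPM in the outer high-B12 bins.

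Depth and composition moved along the same bins. Median depth went from 2688.5 to 11846 UMIs per low-B12 cell and from 3074 to 12657 UMIs per high-B12 cell. S100a8 and S100a9 took a median of 33.2% and 37.1% of UMIs in immature and 10.8% and 13.9% in mature neutrophils, so all other genes shared a smaller part of the UMIs in immature cells. The part of these shifts in the gradients was not tested. The inner low-B12 bins held 13 and 21 cells.

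**Figure D2:**
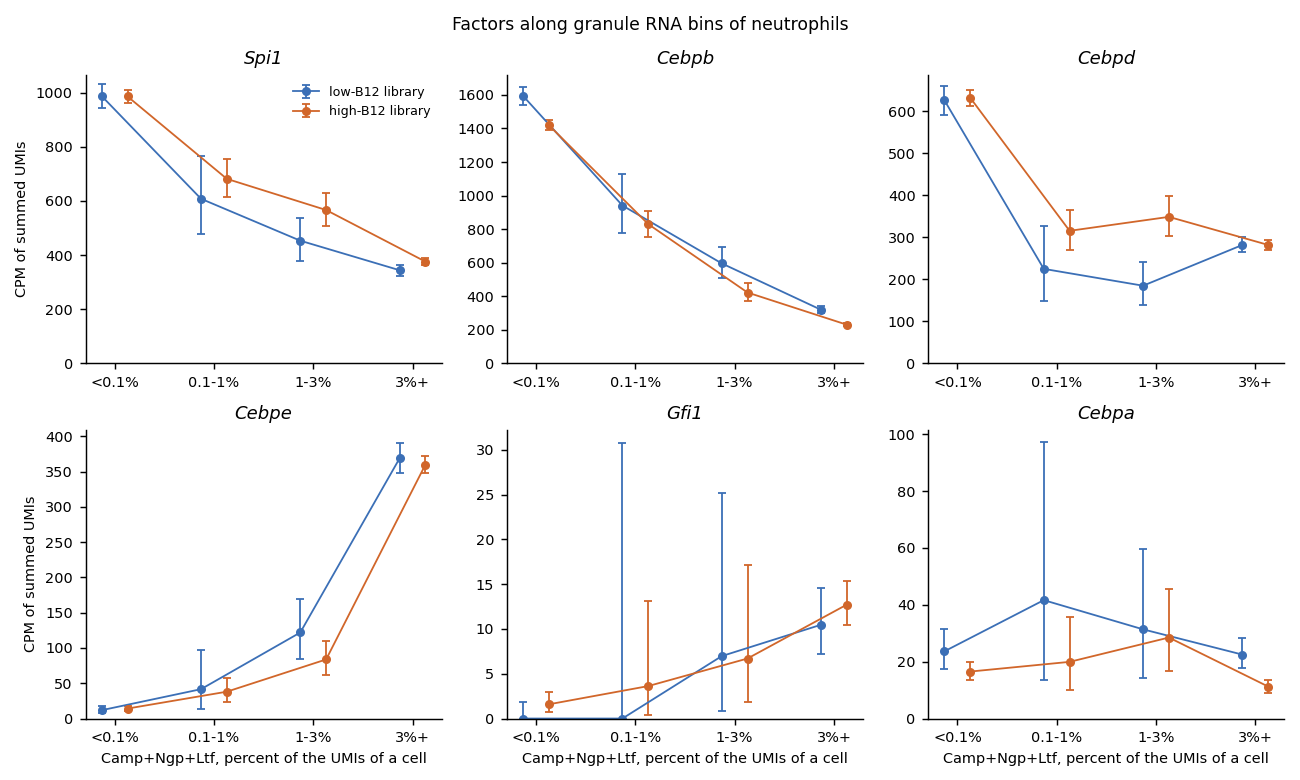
CPM of 6 factors in neutrophils of 4 granule RNA bins (share of UMIs from Camp, Ngp and Ltf, horizontal axis), with Poisson 95% intervals, in the low-B12 and high-B12 library. Cebpe goes from 11.8 and 14.1 CPM in the bin of least to 369 and 360 CPM in the bin of most granule RNA, while Cebpb, Spi1 and Cebpd are lower in the bin of most granule RNA.

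Klf4 and Cebpa were the factors that led in monocytes. Klf4 (chromosome 4, 55527143 to 55532466, minus strand) was at 704 CPM (688 to 720) and 613 CPM (595 to 631) in monocytes and at 457 and 365 CPM in cDCs. It was at 218 and 208 CPM in B cells and at 75.3 and 41.2 CPM in mature neutrophils. Cebpa (chromosome 7, 35119293 to 35121928) was at 123 CPM (117 to 130) and 80.6 CPM (74.2 to 87.4) in monocytes. In cDCs it was at 85.9 and 57.3 CPM, so the high-B12 monocytes lay below the low-B12 cDCs. Progenitors had 33.2 and 35.2 CPM of Cebpa, on 17 and 33 UMIs.

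Monocytes were split by genes outside the 9 into classical cells (at least 2 UMIs of Ly6c2 and Ccr2) and nonclassical cells (at least 2 UMIs of Ace, Cd300e and Eno3, and more of these than of Ly6c2 and Ccr2). Classical cells were 56.7% of low-B12 and 72.0% of high-B12 monocytes, nonclassical cells 36.4% and 19.1%. Cebpa was at 153 and 87.4 CPM in classical against 62.9 and 49.0 CPM in nonclassical cells, 2.43-fold and 1.78-fold higher in the classical cells. Irf4, 1.99-fold and 2.04-fold higher, stood at 26.7 and 16.1 against 13.5 and 7.88 CPM. Cebpd was at 131 and 145 against 76.3 and 71.8 CPM, 1.72-fold and 2.02-fold higher. Among the 9 factors, of those with at least 50 UMIs over both subsets in each library, these 3 were past 1.5-fold in the same direction in both libraries. The share of all genes past 1.5-fold between the subsets was not counted, so these 3 are not set apart from other genes. With fewer UMIs, Cebpe was also higher in classical cells, at 5.29 and 7.54 against 1.35 and 0.876 CPM, but on 4 and 1 UMIs in nonclassical cells (ratios 3.93, 1.41 to 15.2, and 8.61, 1.47 to 348).

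Cebpb, Spi1, Irf8 and Klf4 differed less between the monocyte subsets. Cebpb was higher in nonclassical cells, at 1540 and 1277 against 1106 and 1023 CPM, and so was Spi1, 1.27-fold and 1.18-fold. Irf8 was higher in classical cells, at 219 and 204 against 146 and 168 CPM. Klf4 was at 708 and 583 CPM in classical and at 713 and 773 CPM in nonclassical cells. Median depth was 9104 and 9676 UMIs in classical and 5514 and 6706.5 UMIs in nonclassical cells, and its part was not tested.

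Irf8 (chromosome 8, 120736358 to 120756694) was found in most classes outside the neutrophils. B cells had 396 CPM (386 to 407) and 238 CPM (224 to 252), cDCs 253 and 264 CPM, NK cells 211 and 214 CPM and monocytes 197 CPM in both libraries. Progenitors had 137 and 95.02 CPM. Mature neutrophils were lowest or next to lowest, at 25.6 and 17.2 CPM. Those that met 1 rule had 3.01 and 2.58 CPM, on 5 and 15 UMIs. In cells thinned to 1000 UMIs, 32.1% and 22.8% of B cells had an Irf8 UMI (84.1% and 69.1% unthinned), against 0.893% and 0.523% of mature neutrophils (4.43% and 2.85% unthinned).

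Within cDCs, Irf8 and, on few UMIs, Irf4 differed between subsets drawn after the data were seen. Cells with Xcr1 or Clec9a UMIs, markers of the cross-presenting cDC1 type (66 and 51 cells), had 964 CPM (901 to 1030) and 986 CPM (915 to 1061) of Irf8. Cells with Cd209a, a marker of the other main type (235 and 249 cells), had 73.2 and 99.4 CPM. Irf4 went the other way, at 21.03 and 9.70 CPM on 19 and 7 UMIs, against 36.8 and 33.9 CPM. Its low-B12 intervals overlapped (12.7 to 32.8 against 29.6 to 45.2 CPM). Klf4 and Cebpa were also higher in the Cd209a cells, with Klf4 at 489 and 383 against 257 and 272 CPM. The class mean of Irf8 in cDCs thus lay between levels of these subsets that did not overlap.

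Irf4 (chromosome 13, 30749226 to 30766976) was highest in B cells, at 62.6 CPM (58.4 to 67.0) and 67.8 CPM (60.7 to 75.4). cDCs followed at 32.8 and 29.2 CPM and monocytes at 22.3 and 15.1 CPM. Every other class had 7.36 CPM or less. Of B cells thinned to 1000 UMIs, 5.79% and 5.81% had an Irf4 UMI.

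**Figure D3:**
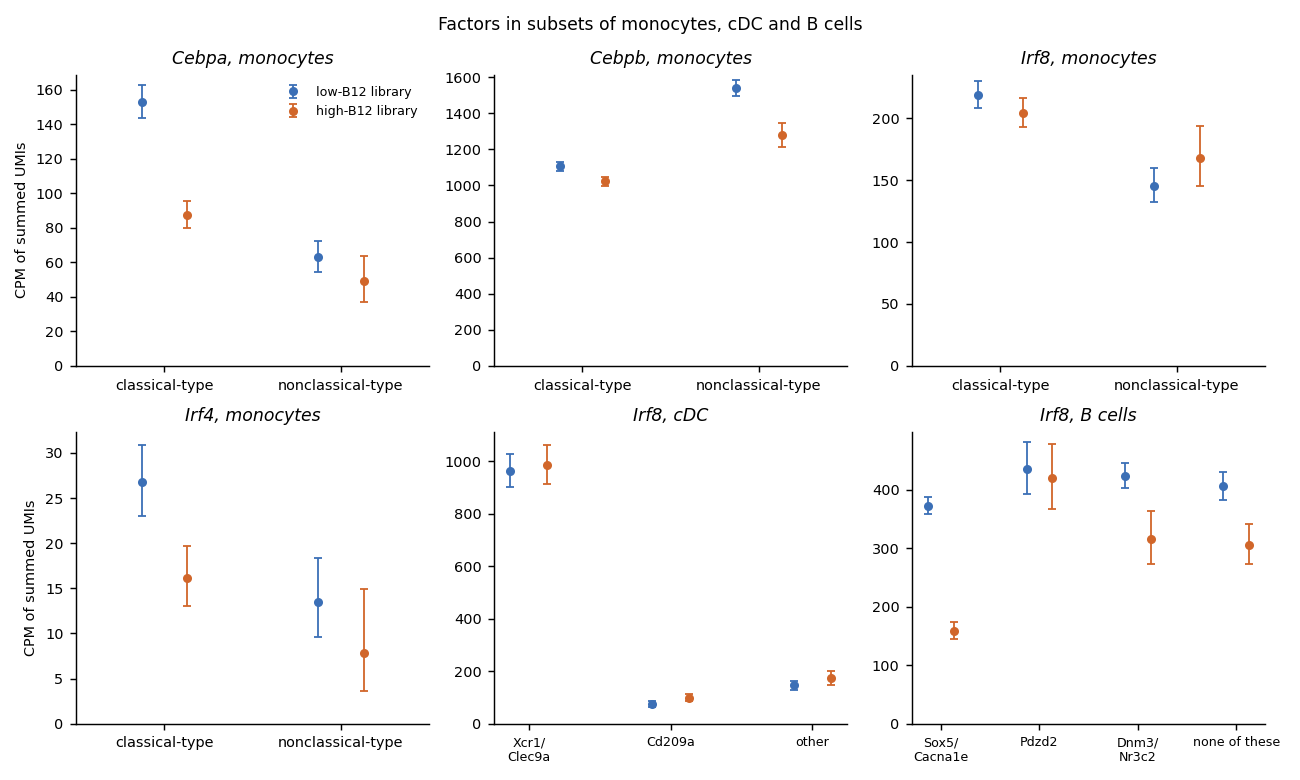
CPM with Poisson 95% intervals of Cebpa, Cebpb, Irf8 and Irf4 in classical and nonclassical monocytes, and of Irf8 in subsets of cDCs and of B cells, in the low-B12 and high-B12 library. Irf8 is at 964 and 986 CPM in Xcr1 or Clec9a cDCs, and the libraries differ most for Irf8 in B cells with Sox5 or Cacna1e (373 and 159 CPM).

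Promoter windows from RefSeq (GRCm38.p6, 250 bases before to 50 after a transcript start) were found for 6 of the 9 genes, with 8 windows in all. They were searched on both strands for 6 motifs: C/EBP (TTGCNNAA), PU.1 (GAGGAA), IRF (GAAA, any 2 bases, GAAA), ETS-IRF (GGAA, any 2 bases, GAAA), KLF (GGGTG) and GFI (AAATCA). The IRF and ETS-IRF motifs can overlap in their GAAA part. Of 32851 windows of the same length, 10.8%, 28.3%, 3.44%, 2.72%, 57.5% and 14% held them, in that order. The 250 bases upstream of Cebpa, Irf4 and Irf8 are shown because these genes carry the contrasts of monocyte and DC subsets and of B cells. Capitals mark motif matches, and all 3 windows are on the plus strand.
Cebpa, chr7:35119043-35119292: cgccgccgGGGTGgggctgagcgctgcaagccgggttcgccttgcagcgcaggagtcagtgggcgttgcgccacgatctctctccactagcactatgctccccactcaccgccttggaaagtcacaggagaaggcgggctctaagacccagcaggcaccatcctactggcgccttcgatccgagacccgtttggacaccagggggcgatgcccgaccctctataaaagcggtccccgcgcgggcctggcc
Irf4, chr13:30748983-30749232: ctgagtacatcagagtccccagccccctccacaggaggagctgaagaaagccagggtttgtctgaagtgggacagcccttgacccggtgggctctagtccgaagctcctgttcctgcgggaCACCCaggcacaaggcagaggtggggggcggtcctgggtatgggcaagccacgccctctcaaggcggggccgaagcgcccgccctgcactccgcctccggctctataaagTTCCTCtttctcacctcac
Irf8, chr8:120736108-120736357: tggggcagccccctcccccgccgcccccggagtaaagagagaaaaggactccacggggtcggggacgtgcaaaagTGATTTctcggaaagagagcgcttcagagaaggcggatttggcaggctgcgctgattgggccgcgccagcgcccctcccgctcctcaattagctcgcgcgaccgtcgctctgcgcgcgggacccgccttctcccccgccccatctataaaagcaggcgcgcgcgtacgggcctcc
The Irf8 window held 1 GFI match (TGATTT on the plus strand), and the second Irf8 window also held 1. The Irf4 window held 1 PU.1 match (TTCCTC) and 1 KLF match (CACCC). Cebpa held 2 KLF matches, 1 of them in the bases shown, and Cebpb 2. The first Gfi1 window held 1 C/EBP and 2 KLF matches, and its second window and that of Klf4 none. A match describes letters and is not a binding site.

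Between the libraries, 9 of 52 measured pairs of a member and a class differed by 1.5-fold or more, and none of these was in cDCs or progenitors. A gene counted as measured in a class with at least 50 UMIs over both libraries. In immature neutrophils 3 of 8 measured members were past 1.5-fold (Cebpa, Irf8 and Klf4, all lower in the high-B12 library), beside 21.6% of all genes measured. In mature neutrophils 1 of 7 was (Klf4), beside 11.9% of genes. In monocytes 2 of 8 were (Cebpa and Cebpe), beside 7.78%, and in B cells 2 of 8 (Cebpa and Irf8), beside 11.4%. In NK cells it was 1 of 7 (Cebpa), beside 9.51%. In cDCs it was 0 of 7, beside 7.88%, and in progenitors 0 of 7, beside 16.4%. The members' median log2 ratio of high-B12 over low-B12 was -0.26 in immature neutrophils, where that of all genes was -0.27. In mature neutrophils these medians were -0.18 and -0.14, in B cells -0.09 and -0.11, in monocytes -0.10 and -0.08, and in NK cells -0.38 and -0.11.

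Cebpa was lower in high-B12 monocytes, at 80.6 against 123 CPM, a ratio of 0.655 (exact conditional binomial interval 0.592 to 0.723). Within classical monocytes, the larger subset, the ratio was 0.571 (0.513 to 0.636), and within nonclassical ones 0.780 (0.568 to 1.06). With the subsets at the same mix the log2 ratio was -0.73, against -0.61 as counted. It was -0.35 in cells thinned to 1000 UMIs and -0.35 as a mean over cells, both short of 1.5-fold. In cDCs the ratio was 0.668 (0.570 to 0.781), just short of 1.5-fold.

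The other monocyte ratios were closer to 1, apart from the sparse Irf4 and Cebpe. Irf4 was at 0.676 (0.533 to 0.854) and at 0.602 (0.465 to 0.777) within classical monocytes, but at a log2 ratio of 0.18 in thinned cells. Cebpe was at 1.57 (1.01 to 2.46), on 41 and 46 UMIs, and at a log2 ratio of -0.82 in thinned cells. Klf4 was at 0.871, Cebpb at 0.865, Cebpd at 1.19, Spi1 at 1.03 and Irf8 at 0.998. The median depth of monocytes was 7947.5 and 9128.5 UMIs.

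Irf8 was lower in high-B12 B cells, at 238 against 396 CPM, a ratio of 0.599 (0.562 to 0.638) on 5332 and 1178 UMIs. In B cells that met no other rule the ratio was 0.572 (0.535 to 0.612). In thinned cells the log2 ratio was -0.48, against -0.74 as counted, and ended short of 1.5-fold. Subsets drawn after the data were seen showed the ratio to be uneven. It was 0.427 (0.385 to 0.472) in 844 and 339 cells with Sox5 or Cacna1e, where Irf8 was at 373 and 159 CPM. It was 0.745 (0.640 to 0.864) in cells with Dnm3 or Nr3c2, 0.752 (0.661 to 0.854) in cells with none of these genes, and 0.966 (0.816 to 1.14) in 124 and 89 cells with Pdzd2, at 435 and 420 CPM. Irf4 in the same subsets was at 72.3 and 73.7 CPM in Sox5 or Cacna1e cells and at 34.6 and 27.8 CPM in Pdzd2 cells, and at a ratio of 1.08 over all B cells.

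The neutrophil ratios of Klf4, Irf8 and Cebpa moved with the cells that met several rules. In immature neutrophils Klf4 was at 94.2 and 28.2 CPM (ratio 0.299, 0.254 to 0.353), Irf8 at 34.0 and 11.5 CPM (0.338, 0.259 to 0.443) and Cebpa at 23.2 and 12.3 CPM (0.532, 0.397 to 0.715). The 52 low-B12 cells of several rules held 307 of 333 Klf4 UMIs and 114 of 120 Irf8 UMIs, and the 55 high-B12 ones 227 of 265 and 97 of 108. B cell markers summed to 430 and 85.5 CPM in this class, with 3 and 0 of 6 at 50 CPM. Monocyte markers summed to 996 and 808 CPM (4 and 1 of 8) and cDC markers to 51.5 and 22.1 CPM (0 of 7), and none of these lists had a marker at 0 there.

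In cells that met 1 rule, Klf4 and Irf8 were low in immature neutrophils of both libraries. Klf4 was then at 11.2 and 4.64 CPM (0.415, 0.246 to 0.712), on 26 and 38 UMIs. Irf8 was at 2.58 and 1.34 CPM (0.521, 0.177 to 1.72), on 6 and 11 UMIs, and Cebpa at 12.9 and 11.0 CPM (0.852, 0.558 to 1.34). In mature neutrophils Klf4 was at 75.3 and 41.2 CPM over all cells (0.547, 0.449 to 0.667) and at 6.02 and 14.4 CPM in cells of 1 rule (2.40, 1.24 to 5.19). The direction of that difference thus turned.

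Cebpa in NK and B cells rested on few UMIs once cells of several rules were left out, too few to place its ratio. Over all cells it was at 13.2 and 3.13 CPM in NK cells (0.237, 0.120 to 0.437) and at 12.1 and 5.04 CPM in B cells (0.416, 0.262 to 0.636). The low-B12 cells of several rules held 55 of 61 and 145 of 163 of these UMIs. NK cells of 1 rule had 1.51 and 1.52 CPM (1.01, 0.269 to 3.76), on 6 UMIs in each library. B cells of 1 rule had 1.63 and 1.82 CPM (1.11, 0.419 to 2.69), on 18 and 8 UMIs. With cells called as doublets left out instead, NK cells had 2.59 and 0.531 CPM (0.205, 0.0218 to 0.962), on 10 and 2 UMIs. B cells then had 2.175 and 1.69 CPM (0.776, 0.281 to 1.87), on 23 and 7 UMIs. The granulocyte factors were closer to a ratio of 1 in immature neutrophils: Spi1 was at a ratio of 1.10 (1.03 to 1.17), Cebpd at 1.04, Cebpe at 0.982 (0.919 to 1.05), Gfi1 at 1.21 (0.827 to 1.81) and Cebpb at 0.710 (0.662 to 0.762).

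**Figure D4:**
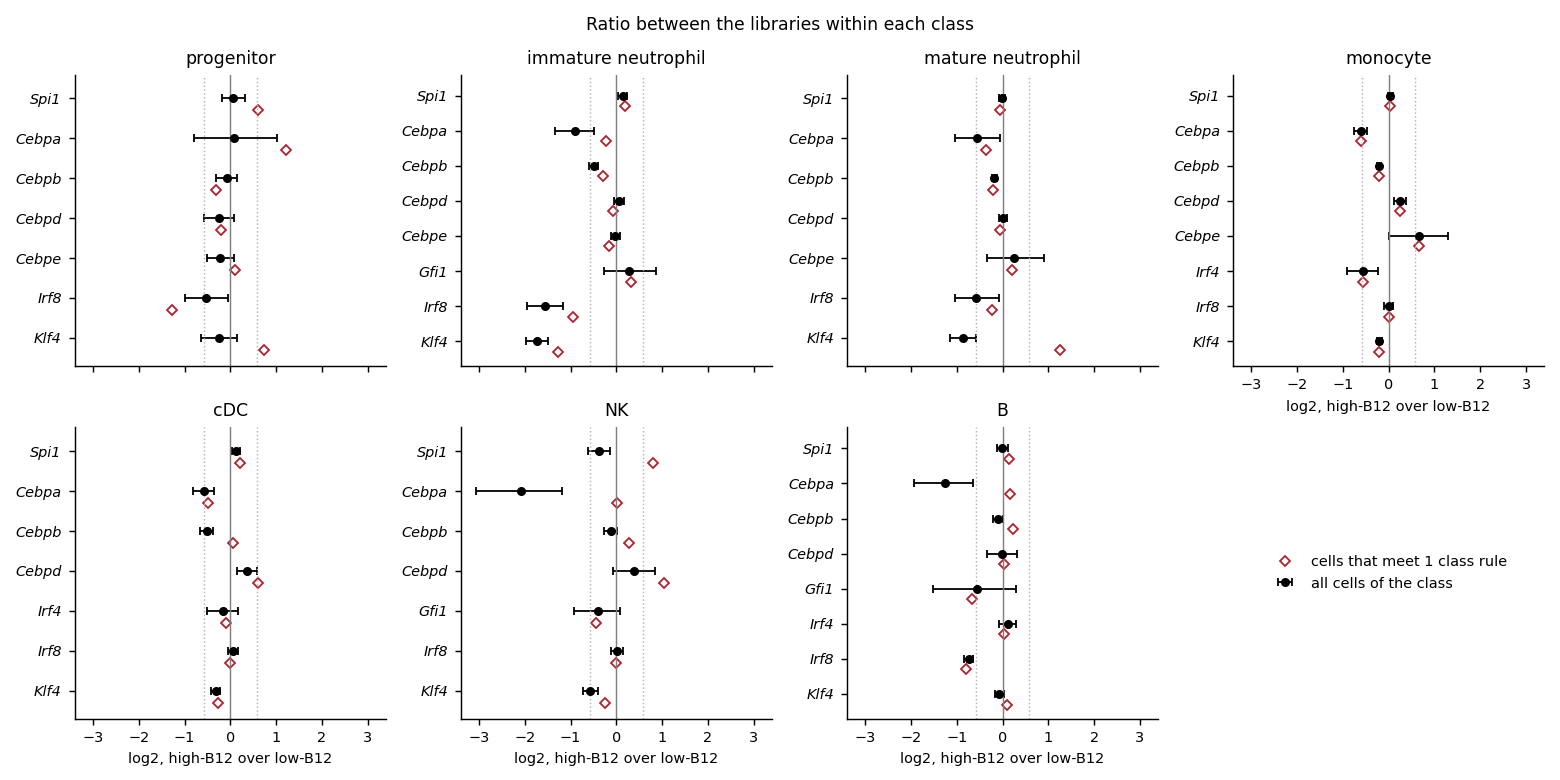
Log2 ratio (high-B12 CPM divided by low-B12 CPM) of each factor within each class. Black marks all cells, with exact conditional binomial 95% intervals. Red open diamonds mark cells that met 1 class rule only (at least 10 UMIs). In monocytes, whose rule came last, these are the same cells. Dotted lines mark 1.5-fold; Irf8 in B cells is past them in both sets of cells (-0.74 and -0.81), while Klf4 in mature neutrophils changes sign (-0.87 and 1.26).

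Ratios are relative to all RNA of a class, and the median gene shifted by more than 0.1 in 4 classes. It was at -0.27 in immature and -0.14 in mature neutrophils and at -0.11 in NK and in B cells, on the log2 scale. Relative to that shift Klf4 was at -1.48 in immature and -0.73 in mature neutrophils and Irf8 at -0.63 in B cells. Klf4 was lower in the high-B12 library in all 7 classes as counted, but in B cells it was at 0.04 relative to the shift and at 0.10 as counted in cells of 1 rule. In cells of 1 rule it was also above 0 in mature neutrophils (1.26) and progenitors (0.73). The progenitor value came from 3 and 7 cells with 15 and 69 Klf4 UMIs, and its interval includes no change (ratio 1.65, 0.937 to 3.11). Those progenitors also differed in Cebpe, at 51.85 and 55.9 CPM on 3 and 9 UMIs, against 322 and 277 CPM in all progenitors. The choice of cells of 1 rule leaves out every progenitor that also met the neutrophil rule, as most progenitors did. The cells left are thus a selected part of the class, and the part of that selection in the Klf4 and Cebpe values was not tested.

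Over all cells, the levels of several factors followed the mix of classes. Cebpe was at 33.6 and 86.9 CPM, a ratio of 2.59, and at a ratio of 1.00 with every class at its mean share of UMIs. Cebpd was at 108.5 and 227 CPM (2.09, and 1.13 at the same mix) and Spi1 at 382 and 501.5 CPM (1.31 and 1.06). Irf4 was at 30.8 and 15.9 CPM (0.515 and 0.909) and Irf8 at 243 and 137.5 CPM (0.565 and 0.816). Cebpa alone stayed past 1.5-fold, at 54.1 and 32.0 CPM (0.592 and 0.640), and not with equal class shares. Mature neutrophils gave 12.2% of low-B12 and 30.8% of high-B12 Spi1 UMIs, and B cells 49.2% and 20.1% of Irf8 UMIs.

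Droplets under 100 UMIs held all 9 genes. In such droplets Cebpb was at 616 and 637 CPM, Spi1 at 405 and 446 CPM, Klf4 at 265 and 181 CPM and Irf8 at 213 and 121 CPM. Cebpa was at 70.0 and 36.5 CPM there, Cebpd at 113 and 219 CPM and Cebpe at 28.0 and 76.2 CPM. Irf4 was at 20.2 and 15.65 CPM in such droplets and Gfi1 at 3.77 and 9.85 CPM. Free RNA thus differed between the libraries in the same direction as the all-cell levels for all 9 genes. For Spi1, Cebpb and Irf4 the droplet counting intervals of the libraries overlapped. For Gfi1 the interval of the all-cell ratio included no change (1.07, 0.883 to 1.30). The part of free RNA in the low levels above was not tested.

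Relatives of the 9 were read from lists of other genes of the same families. In monocytes 0 of 6 measured other IRF genes were past 1.5-fold (median log2 ratio -0.08), among them Irf2 at 263 and 250 CPM and Irf7 at 82.3 and 122 CPM. Of 7 KLF genes 0 were (median -0.18), with Klf2 at 1036 and 912.5 CPM. Of 4 C/EBP genes and partners 1 was lower (Cebpg, 75.5 and 48.0 CPM), and of 7 ETS relatives Spic was higher (12.1 and 24.99 CPM) and Ets1 lower (20.9 and 5.798 CPM). In B cells 0 of 6 IRF and 0 of 7 KLF genes were past 1.5-fold, with medians of -0.15 and -0.14, and 1 of 8 ETS relatives was lower (Etv6, 221 and 144 CPM). In immature neutrophils 2 of 6 IRF genes were lower (Irf1 and Irf5, the latter at 29.4 and 9.57 CPM), as was 1 of 7 KLF genes (Klf9, 10.8 and 3.09 CPM). In that class 10 of 21 other lineage factors were lower and 0 higher, and 1 of 14 secondary granule genes outside the rule was higher. Of all measured genes, 7.78% were past 1.5-fold in monocytes, 11.4% in B cells and 21.6% in immature neutrophils. The lower factors included the B cell factor Ebf1 (68.5 and 15.5 CPM), and B cell markers summed to 430 and 85.5 CPM in immature neutrophils. The part of cells of several rules in these counts was not tested.

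Over the 16 values of 8 groups of cells (the classes and the cells of no rule) in both libraries, the pattern of each factor was set beside 4542 genes by Pearson's r of log2(CPM + 10). The values share libraries and cells, so r is a description. Spi1 was most like Csf2rb (0.98), Csf2ra and Ifitm2, of which the first pair encode cytokine receptor chains of myeloid cells. Cebpe was most like Camp (0.99) and Ngp, both used in the class rule, and Ncam1. Cebpb was most like Atp6v1b2, Nfe2l2 and Arrb1, and Cebpd most like Pygl, Gmfg and Gsr. Klf4 was most like Dusp3, Hspa1a and Ddhd1, Cebpa most like Alpk1, Adap1 and Asah1, Irf4 most like St6gal1, Vav2 and Tank, and Irf8 most like Hspe1, Nop10 and Eef1a1. Gfi1 was under 50 CPM in every class and was not compared. Among the 9 themselves, r was 0.83 for Cebpd and Spi1, 0.82 for Klf4 and Irf8, and -0.78 for Cebpd and Irf8.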

How the data were processed

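The values deposited by the authors are raw UMI counts for each gene in each barcode, without normalization and with empty droplets included. Cell Ranger 4 made the matrices per the file headers, while version 2.1.1 stands in the submitters' processing notes. The genome build behind the counts is not given in the sources used here. The labels name a 10x Genomics 3′ kit of version 2, a version not checked here. No column was left unused. Gene positions in GRCm38 come from GENCODE M21, which holds 32158 (99.6%) of the 32285 gene IDs.

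Cells were barcodes with 500 or more UMIs, 200 or more genes and no more than 10% mitochondrial UMIs (13 genes), a limit that left out 303 and 524 barcodes. The libraries held 48884220 and 46994991 UMIs. Classes were given in the order progenitor, neutrophil (immature or mature), B (Cd79a and Cd79b, at least 3 UMIs), NK (Ncr1 and Klrb1c, at least 2), cDC (Cd209a, Clec10a and Flt3, at least 3) and monocyte (Csf1r, at least 2). At the last cut exactly stood 266 and 226 monocytes, and 140 and 255 cells had 4 to 6% of S100a8 and S100a9. Doublets were kept. Scrublet within scanpy 1.11.5 called 475 and 329 cells, left out in 1 alternative.

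UMIs were summed per class and library. Python 3.11.15, numpy 2.4.6, pandas 2.3.3 and scipy 1.17.1 were used for exact Poisson, binomial and conditional binomial intervals, and the ratio code was tested on simulated data. For all genes and the family lists, 0.5 UMI was added to each sum so that log2 ratios stayed finite. Ratios of the 9 members used the counts without it. The 9 members were always named, with the 3 genes most like each in pattern and up to 4 of the most abundant genes of a list. Genes past 1.5-fold in the family lists were named after their values were seen. The members and lists were chosen with earlier results of these data known. Subsets of cDCs, B cells and unmatched cells, alternatives with the 10 leading cells left out and with subsets at the same mix, and a list of immediate early genes were added after the data were seen.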

Additional observations from a re-analysis of the deposited data

Results flagged for a closer look

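Spi1 lay on opposite sides of no change in a pair of classes. Its log2 ratio of high-B12 over low-B12 was 0.14 in immature neutrophils (353 and 388 CPM) and -0.38 in NK cells (71.0 and 54.6 CPM), a gap of 0.52, and the 95% counting intervals did not overlap. The difference was not tested, since each condition has 1 library. In cells that met 1 class rule only, Spi1 in NK cells was at 21.6 and 37.4 CPM, a log2 ratio of 0.79. It was also above 0 in NK cells with doublets left out (0.34) and in cells thinned to 1000 UMIs (0.65).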

How the results depend on the processing

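Of 52 measured pairs of a member and a class, 9 were past 1.5-fold. Thinning every cell to 1000 UMIs gave 3 of 28 pairs, a requirement of 200 UMIs gave 5 of 39, a looser fold gave 23 and a fold of 2 gave 4. It lay between 8 and 12 with a minimum of 1000 UMIs, at most 5% mitochondrial UMIs, doublets left out, cells of 1 rule only, the mean over cells, scaling by the median ratio of genes, and at least 20 UMIs. With equal class shares 0 members were past 1.5-fold over all cells, against 1 at the mean class shares. Among pairs past 1.5-fold, log2 ratios changed sign for Cebpa in NK cells (0.0092) and B cells (0.16) and Klf4 in mature neutrophils (1.26) in cells of 1 rule, for Klf4 in mature neutrophils with doublets left out (0.43) and for Cebpe in monocytes in thinned cells (-0.82). Among pairs short of it, Spi1 in NK cells (0.79 in cells of 1 rule) and Irf4 in monocytes (0.18 in thinned cells) are examples of further sign changes. With neutrophils at 10% or more S100a8 and S100a9, the Irf8 log2 ratio of the outer granule bins was 0.85 in the high-B12 library, against -0.66. The cause of these changes was not tested, apart from the values of cells of several rules given with them. The leading class stayed the same in 6 alternatives, except for Gfi1 (NK cells, thinned and in cells of 1 rule) and Irf8 (progenitors, in 3 and 7 cells of 1 rule). Monocytes were the same cells in the alternative of 1 rule, since their rule came last. Depth limits Gfi1, Irf4 in neutrophils and every value from progenitors. No paired analysis was possible because each group has 1 library and the labels give no replicate numbers.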

Other observations

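Cells that met no class rule were split by genes outside the 9, after the data were seen. Those with at least 2 UMIs of the neutrophil receptor genes Csf3r and Cxcr2 (292 low-B12 and 698 high-B12 cells) had Spi1 at 824 and 908 CPM, Cebpb at 1442 and 1593 CPM and Cebpd at 375 and 506 CPM. Cebpe was at 5.25 and 21.4 CPM in them. Cells with Cd3 UMIs (68 and 43) had under 50 UMIs of Spi1 and of Irf8 over both libraries, so no level is given for them, and cells with C1q UMIs numbered 17 and 19. The other 646 and 547 cells had Spi1 at 474 and 491 CPM, Klf4 at 458 and 455 CPM and Irf8 at 238 and 286 CPM. Cells with at least 2 UMIs of Siglech, a gene of plasmacytoid DCs, were few, with 2 cDCs in each library, 1 low-B12 monocyte and 2 high-B12 cells of no rule.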
